A study of Homo sapiens with 11 samples.

Results

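The genes described here are 33 genes of cholesterol synthesis and sterol response, of 28395 genes counted by RNA-Seq in PC3 and DU145 prostate cancer cells. They were chosen by name, and each matched a single row of both count tables. By role they are 7 enzymes of the mevalonate arm, 11 enzymes that lead from squalene to cholesterol, 4 regulators, 3 genes of sterol transport and 8 genes of fatty acid synthesis. PC3 was established from a bone metastasis and DU145 from a brain metastasis, and both grow without androgen. The groups were PC3 with control lentivirus (n = 3), PC3 with stable overexpression of ST6GAL1 (n = 3), DU145 with control lentivirus (n = 3) and DU145 with stable overexpression of ST6GAL1 (n = 2, replicates 2 and 3). ST6GAL1 is a Golgi enzyme that caps N-glycans with sialic acid. The control groups (labelled OEControl, Lenti-ORF control) therefore also carry a lentivirus, and a line here is a transduced and selected population in which the promoter of the transgene was not given in the sources used here. Replicates are labelled as biological, with nothing further on how the cultures were separated, so p-values measure the spread between these libraries.

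Cells build cholesterol from acetyl-CoA through mevalonate, farnesyl diphosphate, squalene and lanosterol, and most enzymes on this route sit in the endoplasmic reticulum. When sterol there runs low, SCAP carries the membrane-bound transcription factors SREBP-1 and SREBP-2 (genes SREBF1 and SREBF2) to the Golgi, where they are cleaved and released to activate the genes of synthesis and uptake. When sterol is plentiful INSIG proteins hold SCAP back, and oxysterols activate LXR receptors, which switch on cholesterol export through ABCA1. SREBP-1 also drives fatty acid synthesis, which prostate tumours are known to use heavily.

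The sterol element of SREBP target genes has the core TCACNCCA, and the E-box CACGTG is also bound by SREBPs. RefSeq promoter windows (GRCh38.p14, 250 bases before to 50 after the annotated start) were held for 29 of the 33 members, all but ACAT2, SQLE, FASN and FDFT1. On either strand TCACNCCA occurred in 3 of 29 members (MSMO1, MVK and SREBF2), or 10.3%, against 4.80% of 27305 genes with a window and 4.49% of the genes tested in either line. CACGTG occurred in 5 of 29 (ABCA1, INSIG1, LSS, SC5D and SCAP), or 17.2%, against 8.77% of all genes and 12.1% of the genes tested in either line. CCAAT, the box bound by NF-Y, stood in 21 of 29 members, or 72.4%, against 39.7% of all genes and 42.6% of those tested. GGGCGG, the GC box, stood in 28 of 29, or 96.6%, against 48.3% and 76.0%. In the member windows matches of different strings overlapped in 0 members, and a match is a description of letters and not of binding. Of the stretches below, that of ABCA1 is shown because ABCA1 had the largest change of any member. That of INSIG1 is shown because INSIG1 was lower in both lines. Those of MSMO1 and SREBF2 hold the sterol element core and touch no annotated untranslated region of a coding transcript. Capitals mark the CACGTG of ABCA1 and INSIG1 and the TCACNCCA core of MSMO1 and SREBF2, and each is written 5′ to 3′ along the gene.
ABCA1: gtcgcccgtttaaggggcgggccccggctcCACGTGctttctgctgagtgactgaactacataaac
MSMO1: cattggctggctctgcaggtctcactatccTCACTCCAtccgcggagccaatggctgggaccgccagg
SREBF2: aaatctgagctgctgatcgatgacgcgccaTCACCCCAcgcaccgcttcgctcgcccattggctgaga
INSIG1: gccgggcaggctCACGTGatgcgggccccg
The ABCA1 stretch lies at chr9:104928267-104928332 on the minus strand, and its capitals begin at position -147 from the annotated start. That of MSMO1 lies at chr4:165327483-165327550 on the plus strand with capitals from position -156. That of SREBF2 lies at chr22:41832942-41833009 on the plus strand with capitals from -133, and it overlaps an annotated exon. In INSIG1, on the plus strand of chromosome 7, the capitals begin at position -55. The 66 bases around them touch an annotated untranslated region, and the shorter stretch shown was not checked for this.

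The libraries held between 13194485 and 18201359 counts, and the 33 genes together took 0.534% to 0.554% of the counts in PC3 and 0.814% to 0.848% in DU145. Levels are given as CPM, the counts of a gene relative to the total of its library, scaled by TMM factors within each line. The transgene followed the labels, since ST6GAL1 was at 2.97, 2.09 and 3.07 CPM in the PC3 control libraries and 33.4, 31.8 and 32.6 with overexpression, and at 14.2, 13.0 and 11.3 CPM against 348 and 298 in DU145. The epithelial markers KRT8, KRT18, KRT19 and EPCAM were present in all 11 libraries. With overexpression all 4 fell in DU145 (edgeR log2 fold change -0.27, -0.25, -0.39 and -0.35, adjusted p = 0.0323, 0.026, 0.0336 and 0.0219), and in PC3 KRT8 fell (-0.21) and KRT19 rose (0.15). KLK3 and CD3E were at 0 in all of them, DCN, CDH5 and PTPRC stayed below 1 CPM, and TMPRSS2 reached at most 4.81. Among the markers of other cell types COL1A1 ran from 24.6 to 27.0 CPM in PC3 control and from 18.1 to 18.8 in PC3 overexpression libraries. PECAM1 was at 0.20, 0.44 and 0.45 CPM in DU145 control and 0.78 and 1.45 in DU145 overexpression libraries (log2 fold change 1.63, adjusted p = 0.0259), and reached 5.64 or more in all PC3 libraries without a change that passed. The part of these marker differences in the results of the members was not tested. Spread between libraries was larger in DU145 (biological coefficient of variation 0.0817) than in PC3 (0.0226), so smaller changes could pass the test in PC3. In such bulk libraries fewer cells expressing a gene and less RNA per cell cannot be told apart.

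The starting levels differed between the lines. For levels between genes the CPM, here scaled by TMM factors over all 11 libraries, were divided by the length of the canonical transcript in kilobases. In PC3 control cells the highest were FADS2 (202 ± 7.98 CPM per kb, SD, n = 3), a fatty acid desaturase, and FDPS (156 ± 1.91), which makes farnesyl diphosphate, followed by the stearoyl-CoA desaturase SCD (156 ± 2.22) and the fatty acid synthase FASN (112 ± 2.97). FDPS and SCD did not differ beyond their spread. In DU145 control cells the order was SCD (413 ± 1.25 CPM per kb), FDPS (277 ± 21.4), the squalene synthase FDFT1 (227 ± 13.9) and FADS2 (176 ± 1.67). ACACA, the acetyl-CoA carboxylase that starts fatty acid synthesis, ranked last in both lines, at 0.168 ± 0.0475 and 0.120 ± 0.0898 CPM per kb. It had 257 counts in all 11 libraries together, and whether the counting annotation left out some of its reads is not known, so its level may be understated. With ST6GAL1 the approximate 95% interval of its log2 fold change was -0.62 to 0.39 in PC3 and -0.97 to 1.25 in DU145. A change of ACACA within these intervals was not detectable from these counts.

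**Figure D1:**
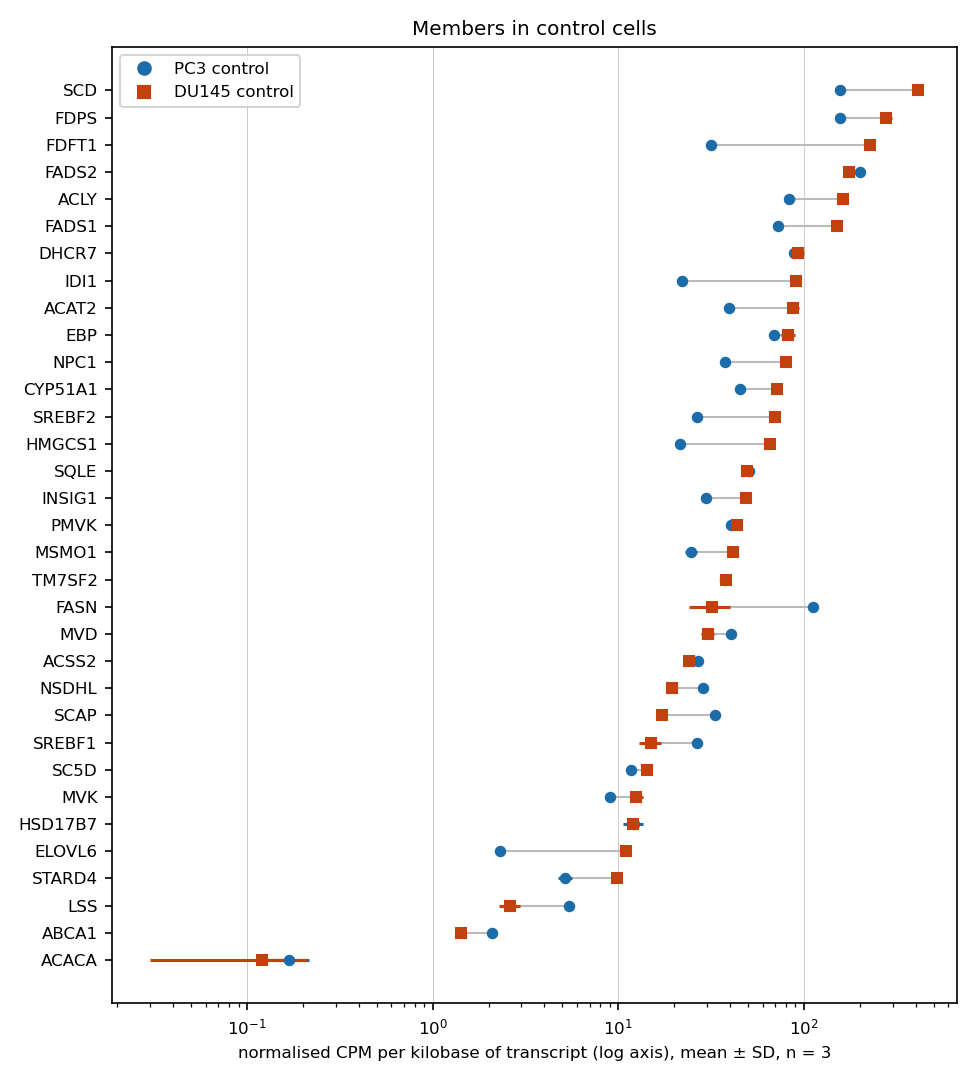
Mean normalised CPM per kilobase of transcript (log axis, bars ± SD, n = 3) of the 33 genes in PC3 control (circles) and DU145 control (squares) libraries. FDFT1, IDI1 and ELOVL6 lie far to the right in DU145 and FASN far to the left, while SQLE, TM7SF2 and DHCR7 nearly coincide.

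Of the 33 genes 18 were higher and 9 lower in DU145 control than in PC3 control cells (edgeR's quasi-likelihood test over all 11 libraries, adjusted p under 0.05), but 42.8% and 43.5% of all 14952 genes tested were called higher and lower in this contrast. The largest differences were in FDFT1 (log2 difference 2.85, SE 0.0544, 7.21-fold), the elongase ELOVL6 (2.27) and the isopentenyl diphosphate isomerase IDI1 (2.03), all higher in DU145. FASN was lower in DU145 (log2 difference -1.81, SE 0.266). SREBF2 was higher in DU145 (1.41) and both SREBF1 (-0.83) and SCAP (-0.95) were lower. The lines were deposited as separate tables, and line and table cannot be told apart.

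In PC3 cells, overexpression of ST6GAL1 went with slightly lower levels of 9 sterol synthesis enzymes. Of the 18 enzymes these 9 fell, 1 rose and 8 did not pass the test, with a median log2 fold change of -0.126 beside -0.002 over all 13544 genes tested. Of the 4 regulators the genes of both SREBPs and of their escort SCAP rose and INSIG1 fell. Over all 33 members 11 were lower and 5 higher at an adjusted p under 0.05, against a background of 18.5% of all genes tested called lower and 18.8% called higher. The size of the changes was small: with the further threshold of an absolute log2 fold change over 0.58, 1 member was higher and none lower, against 3.61% and 1.76% of all genes. Among the enzymes that fell, the change ran from -9.49% of the control level for the methyl sterol oxidase MSMO1 to -17.9% for HMGCS1.

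The enzyme that rose was TM7SF2, a sterol reductase that acts after lanosterol. TM7SF2 was at 57.3, 62.3 and 57.5 CPM in the PC3 control libraries and at 89.2, 91.6 and 91.4 with ST6GAL1 overexpression. Every overexpression library lay above every control library. Its log2 fold change was 0.62 (SE 0.0413, adjusted p = 5e-16), a rise of 53.8%.

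HMGCS1, the cytosolic HMG-CoA synthase at the head of the mevalonate route, was at 115, 117 and 115 CPM in PC3 control cells and 95.5, 93.3 and 96.5 with overexpression. The libraries did not overlap, and the log2 fold change was -0.28 (SE 0.0351, adjusted p = 1.33e-08). MVK, the mevalonate kinase, went from 25.2, 25.9 and 25.3 CPM to 21.6, 21.7 and 20.8 (log2 fold change -0.25, SE 0.0651, adjusted p = 0.00197). SQLE, the squalene monooxygenase, went from 153, 144 and 152 CPM to 127, 124 and 133 (log2 fold change -0.23, SE 0.0344, adjusted p = 9.86e-07). In both genes all overexpression libraries lay below all control libraries. The other enzymes that fell were MVD (log2 fold change -0.15), IDI1 (-0.19), FDFT1 (-0.20), the lanosterol demethylase CYP51A1 (-0.19), MSMO1 (-0.14) and the sterol dehydrogenase NSDHL (-0.20). The enzymes that did not pass were ACAT2, PMVK, FDPS, LSS, HSD17B7, EBP, SC5D and DHCR7, with log2 fold changes between -0.11 and 0.01.

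Among the regulators INSIG1, the retention protein and itself an SREBP target, was at 85.5, 87.1 and 85.2 CPM in PC3 control cells and 75.4, 73.0 and 74.8 with overexpression (log2 fold change -0.21, SE 0.0385, adjusted p = 2.8e-05). SREBF1 was at 124, 136 and 129 CPM against 144, 151 and 151 (log2 fold change 0.20, SE 0.0349, adjusted p = 1.17e-05). SREBF2 was at 134, 143 and 140.5 CPM against 152, 154 and 147 (log2 fold change 0.12, SE 0.0335, adjusted p = 0.00362). None of the 3 genes overlapped between the groups, INSIG1 lying below and the SREBP genes above their controls. SCAP was at 138, 142 and 144 CPM against 156, 152 and 154 (log2 fold change 0.12, SE 0.0323, adjusted p = 0.00264) and likewise did not overlap. The RNA of the transcription factors was therefore higher in PC3 while that of INSIG1 and of 9 enzymes was lower, and cleavage of the SREBP proteins was not measured. With an offset for GC content and length, described below, SREBF2 (0.07) and SCAP (0.06) missed the threshold and SREBF1 (0.14) kept its call.

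Of the transport genes in PC3 NPC1, which moves cholesterol out of lysosomes, was at 176, 177 and 182 CPM in control cells and 169.9, 163 and 169.6 with overexpression (log2 fold change -0.09, SE 0.0311, adjusted p = 0.0183). The groups did not overlap, but NPC1 and MSMO1 missed the threshold with DESeq2 (adjusted p = 0.0611 and 0.104), NPC1 also without overexpression replicate 2 or control replicate 3 (-0.10 to -0.07 over the 6 libraries left out) and MSMO1 without 4 of the 6 libraries (-0.20 to -0.10). ABCA1 and the sterol carrier STARD4 had log2 fold changes of -0.03 and 0.05 and did not pass. In the fatty acid arm 1 of 8 genes rose, FADS2 (log2 fold change 0.10, SE 0.026, adjusted p = 0.00137), and FASN, ACACA, ACLY, SCD, ELOVL6, FADS1 and ACSS2 lay between -0.11 and 0.11 without passing. Of all genes tested in PC3 18.8% were called higher and 18.5% lower. FADS1 and FADS2 overlap in the annotation, and their reads may not be fully separated. Overexpression libraries lay below all controls in 13 of the 33 members and above them in 6, beside 23% and 23.2% of all genes tested.

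**Figure D2:**
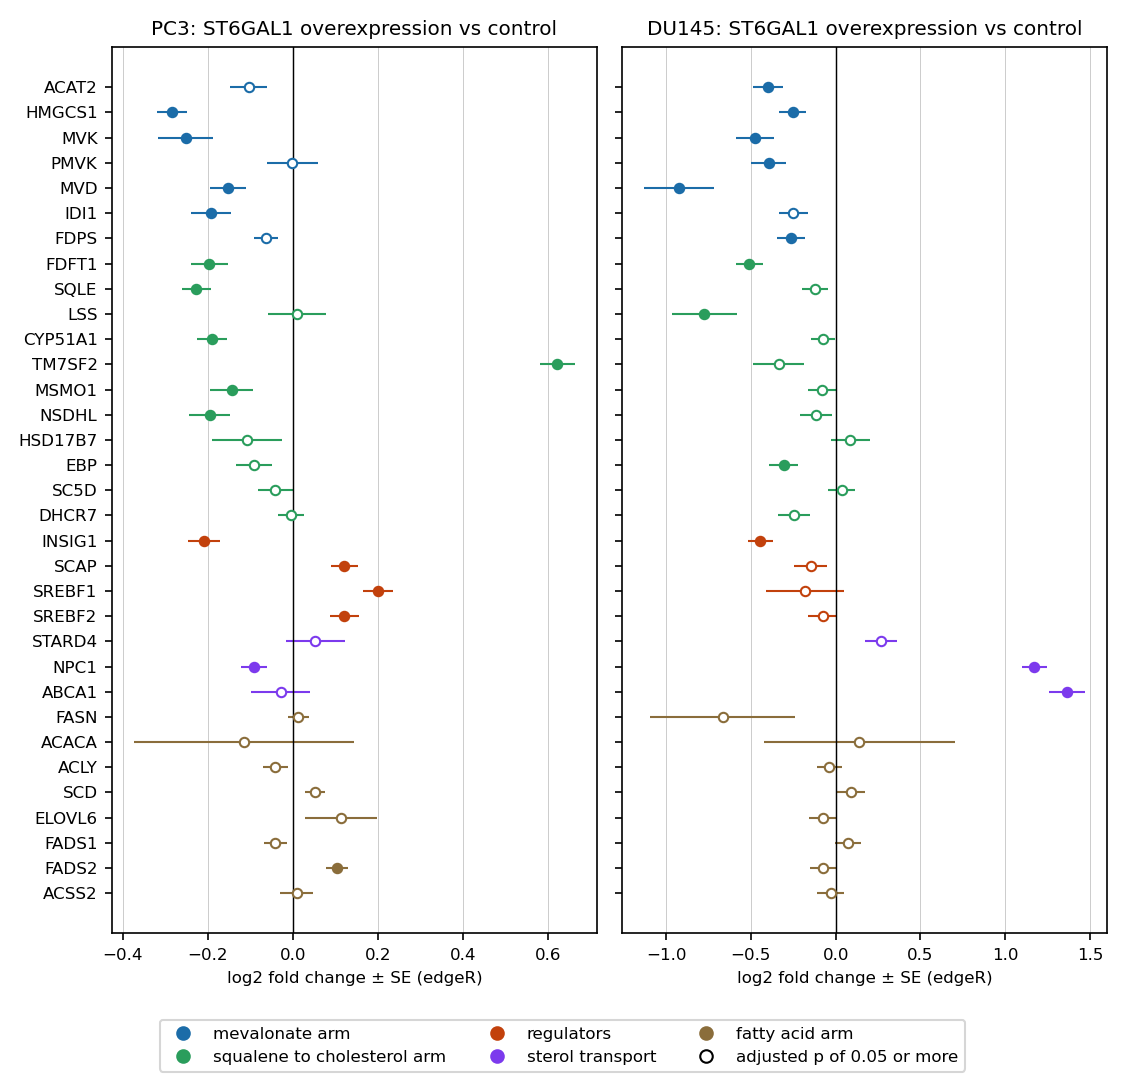
Log2 fold change ± SE of each of the 33 genes with ST6GAL1 overexpression in PC3 (left, 3 against 3 libraries) and DU145 (right, 2 against 3), coloured by role, with filled points for an adjusted p under 0.05; the horizontal scales differ. The 7 genes of the mevalonate arm lie at or left of 0 in both lines, and NPC1 and ABCA1 lie far to the right in DU145.

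In DU145 cells overexpression of ST6GAL1 went with lower levels of the mevalonate arm and higher levels of the transport genes NPC1 and ABCA1. Of the 7 genes of the mevalonate arm 6 fell, beside 9.42% of all genes tested. All 7 had both overexpression libraries below all 3 controls, beside 23.1% of all genes tested. Of the 18 enzymes 9 fell and 0 rose with edgeR, limma-voom and DESeq2 alike (0 higher at an unadjusted p under 0.05 with each), with a median log2 fold change of -0.259 beside -0.002 over all 13676 genes tested. NPC1 and ABCA1 more than doubled. Over all 33 members 10 were lower and 2 higher, against 9.42% of all genes tested called lower and 10.7% called higher. With the fold threshold 2 were lower (MVD and LSS) and 2 higher, against 4.61% and 4.33%. Leaving out control replicate 1, 2 or 3 left 5, 2 and 6 members called lower, so the count of falls rests on having all 3 control libraries. The share of all genes called in these runs is not given here.

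NPC1 was at 375, 369.7 and 401 CPM in the DU145 control libraries and 849 and 872 with overexpression. ABCA1, the exporter that loads cholesterol onto apolipoprotein A-I, was at 14.5, 14.0 and 15.9 CPM in control cells and 39.7 and 36.4 with overexpression. In both genes the lowest overexpression library stood above 2 times the highest control library. The log2 fold changes were 1.17 (SE 0.0754, adjusted p = 1.78e-07, 2.25-fold) for NPC1 and 1.36 (SE 0.107, adjusted p = 1.26e-06, 2.57-fold) for ABCA1, and both calls held under every alternative run. STARD4, which carries cholesterol between membranes, was at 47.0, 43.6 and 45.8 CPM against 59.0 and 50.4. Its groups did not overlap, but its log2 fold change of 0.27 did not pass (SE 0.0942, adjusted p = 0.0619).

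The neighbourhood of NPC1 moved with it. Of the up to 25 tested genes on each side of NPC1 on chromosome 18 (gene at chr18:23506184-23586506) 48 of 50 had a positive log2 fold change in DU145, with a median of 0.38. The neighbours chosen in the same way from the genes tested in PC3 had a median of -0.01, with 23 of 50 positive. ABCA1 (chr9:104781006-104928155) had neighbours with a median of 0.05 in DU145. Around FDFT1 on chromosome 8 the median was -0.30 with 11 of 50 genes positive, around LSS on chromosome 21 it was -0.29 (7 of 32 positive), around TM7SF2 -0.25, around FASN -0.21 and around MVD -0.18. Around SQLE, on the other arm of chromosome 8, the median was 0.18. The part of such regional shifts in the results of the members was not tested.

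**Figure D3:**
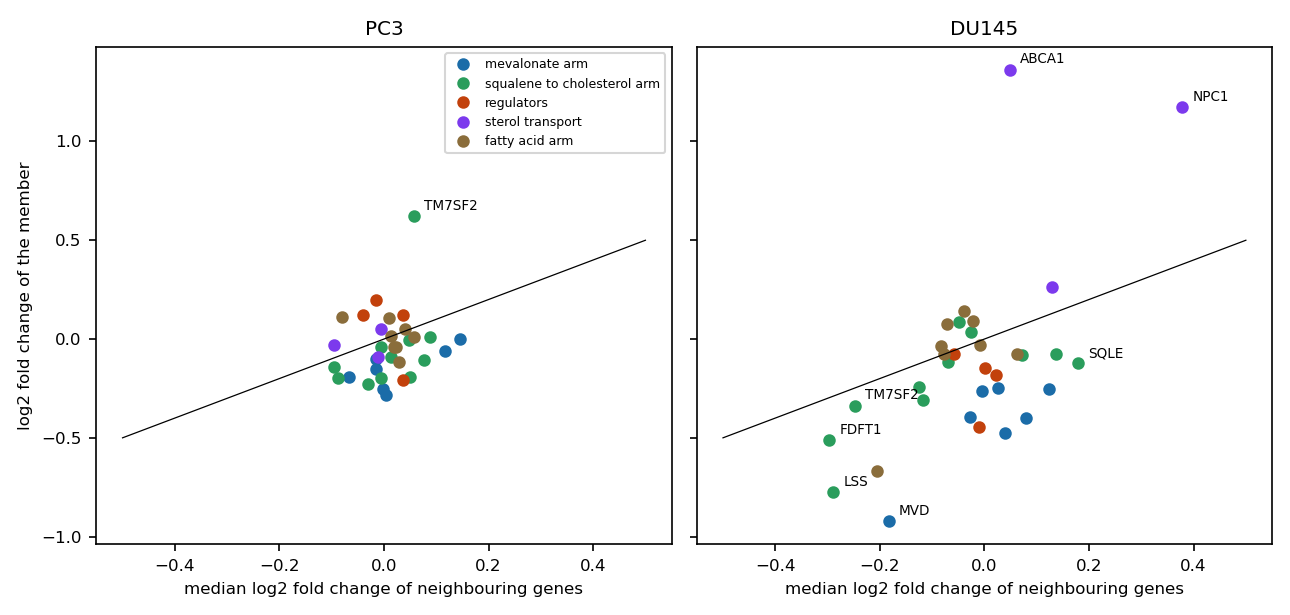
Log2 fold change of each member (vertical) against the median log2 fold change of up to 25 tested genes on each side of it (horizontal) in PC3 and DU145, with the line of equality. In PC3 the neighbour medians lie between -0.10 and 0.15, whereas in DU145 they run from -0.30 around FDFT1 to 0.38 around NPC1, and ABCA1 stands high over a median of 0.05.

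FDFT1, which joins farnesyl units to squalene, was at 453, 491 and 437 CPM in DU145 control cells and 336 and 311 with overexpression (log2 fold change -0.51, SE 0.0807, adjusted p = 0.000501). MVK was at 32.1, 37.4 and 36.4 CPM against 23.0 and 27.7 (log2 fold change -0.48, SE 0.114, adjusted p = 0.00893). INSIG1 was at 135, 146 and 142 CPM against 105 and 102 (log2 fold change -0.44, SE 0.0751, adjusted p = 0.000837). In each of these genes both overexpression libraries lay below every control library, and the change came to -29.8%, -28.1% and -26.5% of the control level. HMGCS1 was at 343, 369 and 341 CPM against 312 and 278, again without overlap (log2 fold change -0.25, SE 0.0797, adjusted p = 0.0384). FDFT1 and INSIG1 kept their calls with each of the 5 libraries left out, MVK lost its call without control replicate 2 (range -0.62 to -0.36), and HMGCS1 lost its call in 4 of 5 cases, all but that without overexpression replicate 2 (-0.35 to -0.17).

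The largest falls in DU145 were in MVD, the mevalonate diphosphate decarboxylase, and LSS, the lanosterol synthase that closes the sterol rings. MVD was at 50.3, 54.1 and 58.7 CPM in control cells and 21.7 and 35.4 with overexpression (log2 fold change -0.92, SE 0.206, adjusted p = 0.0269). LSS was at 11.5, 12.1 and 14.5 CPM against 5.76 and 8.97 (log2 fold change -0.77, SE 0.189, adjusted p = 0.0141). The groups did not overlap, but the overexpression libraries differed from each other by more than the control libraries did. TM7SF2 was at 55.5, 59.7 and 63.6 CPM against 38.3 and 55.8, where replicate 3 lay within the range of the controls, and its log2 fold change of -0.34 did not pass (adjusted p = 0.172). The other enzymes that fell were ACAT2 (-0.40), which makes acetoacetyl-CoA, the phosphomevalonate kinase PMVK (-0.40), FDPS (-0.27) and the sterol isomerase EBP (-0.31). With control replicate 2 left out MVD, LSS, ACAT2, PMVK, FDPS and EBP all lost their calls. MVD also lost its call without control replicate 1 or 3 (range over 5 libraries left out -1.32 to -0.63), LSS without control replicate 3 (-1.13 to -0.51, the latter without overexpression replicate 2), EBP without control replicate 1 (-0.38 to -0.26), FDPS without control replicate 1 or overexpression replicate 3 (-0.34 to -0.20) and PMVK in every case but that without overexpression replicate 3 (-0.55 to -0.27).

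The remaining regulators did not pass in DU145. SREBF1 was at 67.2, 66.9 and 84.4 CPM against 49.7 and 78.4, SREBF2 at 365, 349.9 and 385 against 319 and 376, and SCAP at 74.6, 69.0 and 75.3 against 58.9 and 72.8. In each the replicate 2 library was below all controls and replicate 3 was among them. The approximate 95% interval of the log2 fold change ran from -0.63 to 0.27 for SREBF1. It ran from -0.24 to 0.09 for SREBF2 and from -0.34 to 0.04 for SCAP. In the fatty acid arm 0 of 8 genes passed with edgeR, limma-voom or DESeq2 (0, 1 and 0 at an unadjusted p under 0.05). With edgeR 10.7% of all genes tested were called higher and 9.42% lower, and with so few genes 0 of 8 is near these shares. Without FASN and ACACA the log2 fold changes of the arm lay between -0.08 and 0.09. FASN was at 212, 254 and 342 CPM against 111 and 227, a log2 fold change of -0.67 with an SE of 0.425 and an adjusted p of 0.382. Over all 33 members the overexpression libraries lay below all controls in 16 and above them in 4, beside 23.1% and 25.2% of all genes tested.

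**Figure D4:**
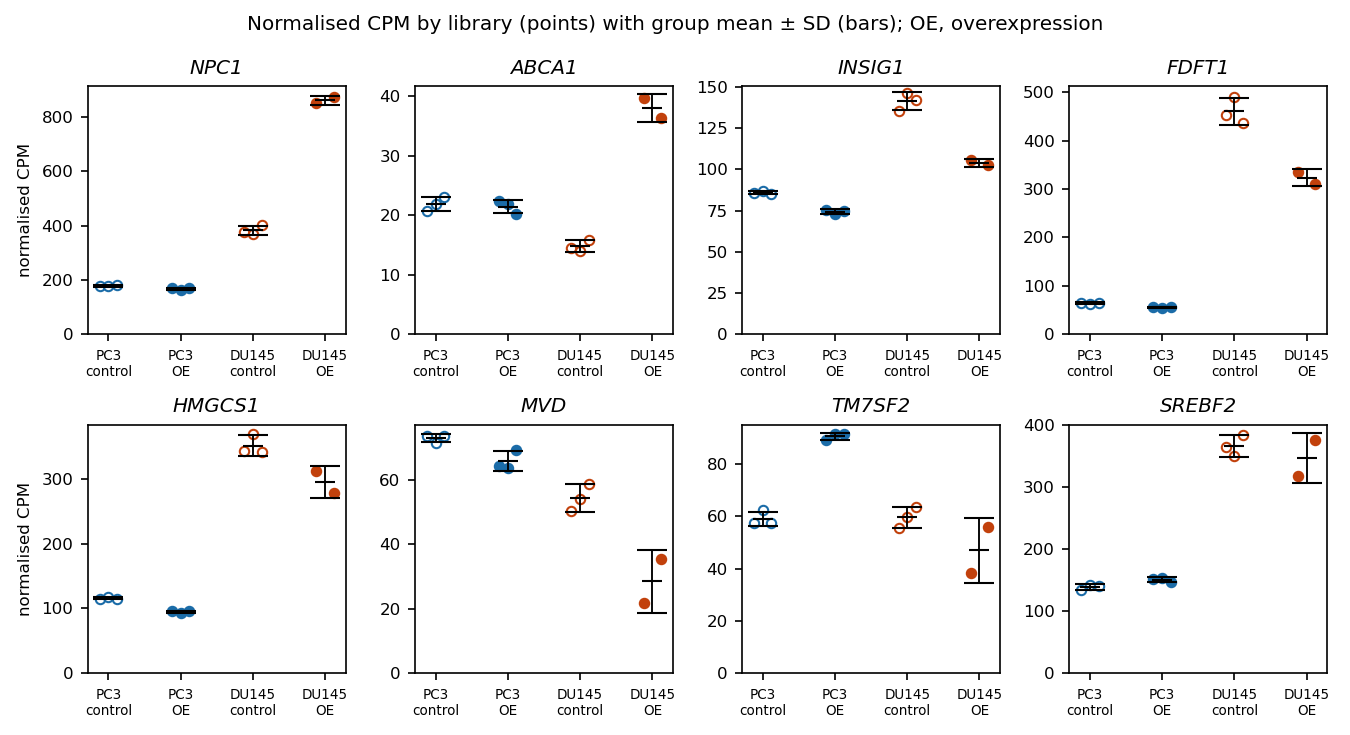
Normalised CPM of 8 members in every library (open points, control; filled points, ST6GAL1 overexpression; OE, overexpression), with the mean ± SD of each group and an axis that starts at 0. INSIG1, FDFT1, HMGCS1 and MVD lie lower with overexpression in both lines, NPC1 and ABCA1 are raised in DU145 only, and the DU145 overexpression libraries of MVD, TM7SF2 and SREBF2 lie apart from each other.

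The DU145 overexpression libraries differed from each other with the GC content of the transcript. Over the 33 members the log2 difference of replicate 3 minus replicate 2 correlated with GC content at r = 0.82, and over 13333 genes at r = 0.69. These are correlations across genes within a pair of libraries, which share depth and preparation, and are given as a description. The difference was 1.02 for FASN, 0.68 for MVD, 0.65 for SREBF1, 0.56 for LSS and 0.53 for TM7SF2, all with a GC content over 58%, and -0.22 for STARD4 and -0.20 for IDI1, with 34.4% and 37.9%. Control libraries also differed with GC content, though less. Over the members r was 0.50 for DU145 control replicate 3 minus 1, 0.36 for 3 minus 2 and 0.48 for PC3 control replicate 2 minus 1. Over all genes the values were 0.29, 0.21 and 0.27. The remaining pairs within groups lay between -0.17 and 0.23 over the members. The DU145 log2 fold changes themselves fell with GC content, with r = -0.38 over the members and -0.28 over all genes. In PC3 the corresponding values were 0.42 over the members and 0.06 over all genes.

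With an offset for GC content and length fitted in each library, an alternative chosen after the values were seen, 14 members were lower and 3 higher in DU145, against 17.2% and 16.1% of all genes tested. Of the 18 enzymes 12 then fell, since IDI1 (-0.34), SQLE (-0.19), CYP51A1 (-0.16) and MSMO1 (-0.16) passed and FDPS (-0.17, adjusted p = 0.0571) did not. In the fatty acid arm ELOVL6 went from -0.08 to -0.21 and passed (adjusted p = 0.0043). STARD4 went from 0.27 to 0.20 and passed. The signs of the other regulators turned without passing: SREBF1 from -0.18 to 0.08, SREBF2 from -0.08 to 0.03 and SCAP from -0.15 to 0.09. MVD went from -0.92 to -0.56, MVK from -0.48 to -0.30, PMVK from -0.40 to -0.20 and TM7SF2 from -0.34 to -0.06, whereas LSS stood at -0.66, FDFT1 at -0.56, INSIG1 at -0.52, NPC1 at 1.13 and ABCA1 at 1.22. In PC3 the same offset gave 14 lower and 3 higher members, against 22% and 17.3% of all genes, with 11 of 18 enzymes lower. SCAP (0.06, adjusted p = 0.106) and SREBF2 (0.07, adjusted p = 0.0663) then missed the threshold, SREBF1 (0.14, adjusted p = 0.000344) kept its call, FADS2 went to 0.07 and TM7SF2 stood at 0.577.

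**Figure D5:**
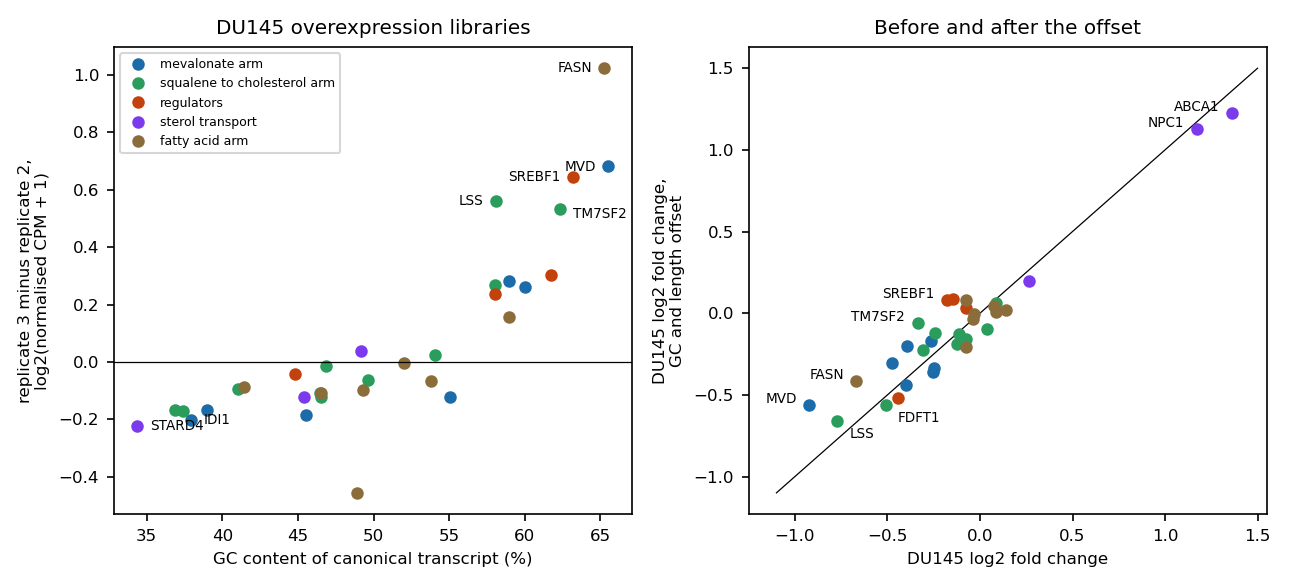
Left, the log2 difference between the DU145 overexpression libraries (replicate 3 minus replicate 2) against the GC content of the canonical transcript for the 33 members (r = 0.82); right, their DU145 log2 fold change with and without the offset for GC content and length, with the line of equality. MVD and TM7SF2 move towards 0 with the offset, while NPC1 and ABCA1 stay above 1.

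Side by side, the lines shared 5 of 33 members that fell in each, HMGCS1, MVK, MVD, FDFT1 and INSIG1, beside 2.38% of the 12413 genes tested in both lines. The lines have no control library in common. NPC1 was the member that passed with opposite signs, at -0.09 in PC3 and 1.17 in DU145, as did 3.54% of all genes. A further 10 members passed in PC3 alone, 6 in DU145 alone and 11 in neither, beside 28.6%, 10.4% and 52.3% of all genes, which does not by itself show that the lines differ.

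Whether a member changed differently in the 2 lines was asked with an interaction term in a joint fit of the 11 libraries, given as the DU145 log2 fold change less the PC3 one. It passed for 9 of the 33 members, 2 higher and 7 lower in DU145, against 10.4% and 9.36% of the 14952 genes tested. Transport genes led: the difference was 1.26 for NPC1 (SE 0.0672, adjusted p = 2.81e-10) and 1.39 for ABCA1 (SE 0.116, adjusted p = 5.75e-08). ABCA1, at 20.7, 21.9 and 23.0 CPM in PC3 control cells and 22.3, 21.8 and 20.2 with overexpression, overlapped between the PC3 groups. TM7SF2, higher in PC3 alone, differed by -0.96 (SE 0.16, adjusted p = 0.00114). LSS differed by -0.78 (SE 0.199, adjusted p = 0.011), or -0.52 without DU145 overexpression replicate 2, and in PC3 it was at 27.4, 26.7 and 25.6 CPM against 30.5, 24.9 and 25.3. FDFT1 differed by -0.32 (SE 0.0786, adjusted p = 0.00673), falling in both lines and further in DU145, from 65.1, 62.2 and 65.4 CPM to 56.8, 54.9 and 56.7 in PC3. MVD (-0.77), PMVK (-0.40), ACAT2 (-0.30) and INSIG1 (-0.24) also passed, but not with every library left out. INSIG1 lost its call without PC3 control replicate 1 or 3 or PC3 overexpression replicate 1 or 3 (range over 11 libraries left out -0.28 to -0.22). MVD (-1.19 without DU145 overexpression replicate 3 to -0.48 without replicate 2), ACAT2 (-0.40 to -0.23) and PMVK (-0.57 to -0.27) each lost their calls without DU145 control replicate 2, PC3 control replicate 2 or PC3 overexpression replicate 3. Further losses came for MVD without DU145 control replicate 3 or PC3 control replicate 1, for ACAT2 without DU145 control replicate 1, PC3 control replicate 3 or PC3 overexpression replicate 2, and for PMVK without DU145 control replicate 1 or 3, DU145 overexpression replicate 2 or PC3 control replicate 3. HMGCS1 and MVK gave differences of 0.03 (approximate 95% interval -0.12 to 0.17) and -0.23 (-0.47 to 0.01). Of the 8 fatty acid genes 0 passed with edgeR, limma-voom or DESeq2 (1, 2 and 1 at an unadjusted p under 0.05). With the GC and length offset ELOVL6 (-0.31, adjusted p = 0.0155) and IDI1 (-0.17, adjusted p = 0.0434) passed and PMVK missed the threshold (-0.17, adjusted p = 0.226). MVD was then at -0.37 and TM7SF2 at -0.64. In that run 2 members were higher and 8 lower, beside 2049 and 1926 of all 14952 genes tested.

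A hand-written list of 54 further genes of the same pathways gave a wider view. It held SREBP processing, isoprenoid branches, sterol synthesis partners, sterol handling and fatty acid use, and 52 of its genes were tested. In PC3 9 were higher and 11 lower, with a median log2 fold change of -0.02, beside 18.8% and 18.5% of all genes. In DU145 6 were higher and 5 lower, with a median of 0.04, beside 10.7% and 9.42%. In both lines these shares are near the background. The gene past both thresholds was MID1IP1, which promotes polymerisation of acetyl-CoA carboxylase. MID1IP1 was at 20.3, 19.7 and 20.5 CPM in PC3 control cells and 11.7, 13.4 and 13.0 with overexpression, without overlap (log2 fold change -0.66, SE 0.0784, adjusted p = 4.82e-09). In DU145 it was at 41.2, 42.6 and 43.4 CPM against 39.1 and 54.0 and did not pass.

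Some members share their place in the genome with other genes, and the use of strand in counting was not given in the sources used here. ACAT2 overlaps TCP1 and SOD2, MVK overlaps MMAB, NPC1 overlaps RMC1, IDI1 overlaps WDR37 and SREBF1 overlaps RAI1. NPC1 had 62555 counts over all libraries and RMC1 had 6939, and ACAT2 had 14918 against 52439 of TCP1. HSD17B7, a sterol ketoreductase, has a near-identical pseudogene, and its values are uncertain for that reason.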

How the data were processed

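RNA-Seq of PC3 and DU145 cells (11 libraries in 4 groups) was analysed from gene counts. Single reads of 75 bases had been trimmed (Cutadapt), aligned to hg38 (HISAT2) and assigned to Entrez genes (featureCounts) by the authors, and the deposited counts are not normalised; the annotation and strand setting are not given in the sources used here. Symbols and coordinates were taken from RefSeq (GRCh38.p14; 97.7% of rows matched). GC content and length are of GENCODE canonical transcripts.

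Each line was tested with edgeR 4.0.16 (R 4.3.3; filterByExpr, TMM, robust quasi-likelihood test) with Benjamini-Hochberg adjustment over all genes tested, and the difference between lines as an interaction over all libraries. The study's methods name limma-voom, run here as an alternative (limma 3.58.1). Standard errors were derived from the fold change and F statistic. Alternatives were DESeq2 1.42.0, RLE factors, library totals, no filter, the replicate number as a block, each library left out and other thresholds, and, after the values were seen, an offset for GC content and length. The members, gene lists and rules were chosen with earlier results of these data known. All 33 members were named; values in every library were printed for members past both thresholds, the 3 largest other changes per line, the 5 smallest interaction p-values and the regulators. Scripts were tested on simulated counts. No replicate pair agreed within sampling noise (chi-square per degree of freedom 1.37 to 12.6). The deviations of each library from its group mean were correlated between control and overexpression libraries. Those of the same number gave 0.004 to 0.072 in PC3, and 0.13 and 0.37 in the 2 pairs of DU145. With 2 overexpression libraries in DU145 their deviations mirror each other, and control replicate 1 gave 0.29 with overexpression replicate 2. Libraries were not treated as paired.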

Additional observations from a re-analysis of the deposited data

Results flagged for a closer look

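For 9 members the change with ST6GAL1 differed between the lines by the interaction test of edgeR (the DU145 log2 fold change less the PC3 one). The difference was 1.39 for ABCA1, 1.26 for NPC1, -0.96 for TM7SF2, -0.78 for LSS, -0.77 for MVD, -0.40 for PMVK, -0.32 for FDFT1, -0.30 for ACAT2 and -0.24 for INSIG1. ABCA1 rose in both DU145 overexpression libraries and overlapped with its controls in PC3, and NPC1 rose in DU145 and fell slightly in PC3. The values of GC content, of the neighbouring genes and of the 2 DU145 overexpression libraries stand beside these genes in the report, and their part was not tested.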

How the results depend on the processing

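The main counts of members passing were 11 lower and 5 higher in PC3, 10 lower and 2 higher in DU145, and 7 lower and 2 higher for the interaction. With the fold threshold of 0.58 they were 0 lower and 1 higher in PC3, beside 1.76% and 3.61% of all genes. In DU145 they were 2 lower and 2 higher, beside 4.61% and 4.33%. For the interaction 3 were lower and 2 higher, beside 727 and 577 of all 14952 genes tested. In DU145 control against PC3 control 4 were lower, in place of 9, and 15 higher, in place of 18. Of all 14952 genes 4962 were lower and 4735 higher in that contrast. At an adjusted p under 0.01, 4 were lower in DU145 and 2 for the interaction. With the GC and length offset 3 were higher in PC3, and FASN in PC3 turned from 0.01 to -0.0759 (adjusted p = 0.00852); the cause was not tested. Leaving out single libraries, the count lower in DU145 ran from 2 to 12 and that of the interaction from 3 (without PC3 overexpression replicate 3) to 15 (without DU145 overexpression replicate 3), with 4 without PC3 control replicate 2 or 3. With the replicate number as a block the interaction had 14 members lower, DU145 had 15 lower and 3 higher, and PC3 was at 11 and 5. The libraries share only a number. In PC3 the deviations of control replicate 1 from its group mean correlated better with those of overexpression replicate 3 (0.022) than of replicate 1 (0.0039). For the block, the single libraries left out and an adjusted p under 0.01 the share of all genes called is not given here. Shifts of the counts in these runs are therefore not a result about the members alone. Without the filter MVD missed the threshold in DU145 (adjusted p = 0.0988). Precision in DU145 is limited by 2 overexpression libraries, and for ACACA by its 257 counts; why these are few was not tested.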
